A study of Mus musculus with 16 samples.

Results

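Of the 831 genes measured here, 6 encode metalloproteases of interest: 3 membrane-anchored ADAM proteases (Adam8, Adam12 and Adam19) and 3 secreted ADAMTS proteases (Adamts4, Adamts5 and Adamts7). They were taken as the rows whose Ensembl identifier carries 1 of these 6 symbols, and all 6 were found. RNA was sequenced from whole tibialis anterior muscle at postnatal day 30 in 16 mouse libraries, 4 for each of 4 genotypes. The mdx/miR-133b-/- mice carry both the mdx mutation and the loss of miR-133b, mdx mice carry the mdx mutation with miR-133b present, miR-133b-/- mice lack the microRNA on a dystrophin-sufficient background, and Control mice are labelled wild type. The mdx mutation disrupts Dmd, the dystrophin gene, and models Duchenne muscular dystrophy. The microRNA miR-133b is abundant in skeletal muscle, and the series asks whether miR-133b slows that disease. Per the labels the groups share no further allele or treatment. Neither the strain, nor the extent of the miR-133b deletion, nor whether each library is a different mouse is given in the labels. The p-values below therefore reflect how these libraries vary, which may be technical.

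ADAM proteins sit in the cell membrane and cut the outer part of other membrane proteins free, a step called shedding that releases growth factors, cytokine receptors and adhesion molecules. ADAMTS proteins are secreted, bind the extracellular matrix through thrombospondin-type repeats, and cut large proteoglycans such as aggrecan and versican. Both groups share a zinc-dependent catalytic fold, and some members of each are held in check by tissue inhibitors of metalloproteinases. In regenerating muscle, leukocytes, mesenchymal cells and fusing muscle cells are known sources of these enzymes.

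Each value below is a read count that the authors had multiplied by 1 factor per library, called scaled reads here. The listed genes took 2356990 to 3355306 reads per library in mdx/miR-133b-/-, 2879407 to 3655796 in mdx, 2699028 to 6000033 in miR-133b-/- and 3219038 to 4317386 in Control, and the total depth is unknown. The table holds only genes whose mdx/miR-133b-/- and miR-133b-/- means differ by at least 1.72-fold, so that contrast is given as values without a test. The difference of mdx against Control uses none of the libraries of that fold selection, although the spread in its test is estimated over all 16 libraries. The lowest mean of a listed gene over the 16 libraries was 50.1 scaled reads, and the mdx and Control libraries enter that mean. Adam8 and Adamts4 averaged below that value in Control (18.2 and 27.2) and miR-133b-/- (16.6 and 10.3), and above it in both mdx genotypes. The part of such a floor in their rise in mdx was not tested. The tissue label was checked with 4 listed fast-fibre genes (Myh4, Actn3, Pvalb and Ckm), whose sum was between 256312 and 730433 scaled reads in every library. Dmd was not analysed here. The transcript Gm28653, whose annotated span covers the miR-133b hairpin, had 294 to 541 scaled reads in mdx/miR-133b-/-, 241 to 526 in mdx, 6.62 to 43 in miR-133b-/- and 20.0 to 72.6 in Control libraries. As its reads may lie outside the deleted bases, this does not check the genotype.

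The microRNA removed in these mice acts through its seed, bases 2 to 8 of the mature strand, shown in capitals from RefSeq (GRCm38.p6, chr1:20682834-20682855, plus strand) because a matching site in a 3' UTR is what a direct target would carry. Below it stand the closest sites that any of the 6 protease transcripts held, both in Adamts5 (GRCm38, minus strand, chr16:85862443-85862469 and chr16:85862131-85862157). Capitals there mark GACCAAA, the match to bases 2 to 7 followed by A.
miR-133b-3p: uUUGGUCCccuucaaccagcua
Adamts5 site A: tgctctctgcGACCAAAaggtttactc
Adamts5 site B: atatatatttGACCAAAgtaggtctgc

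The full seed match, GGACCAA, was absent from the longest annotated 3' UTR of all 6 proteases (269 bases in Adamts7 to 6437 in Adamts5), while 67 of the 779 listed genes with an annotated 3' UTR held it (8.60%). The weaker GACCAAA match occurred in 79 of the 779 genes (10.1%), and Adamts5 was 1 of 9 genes with at least 2 of them. These are matches of letters and not tested sites.

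Promoter windows from 250 bases before to 50 bases after the transcription start were matched in RefSeq (GRCm38.p6) for Adam19 (chr11:46055734-46056033, plus strand) and Adam8 (chr7:139992513-139992812, minus strand), 2 of the 6 proteases. Adam12, Adamts4, Adamts5 and Adamts7 were not matched. Both windows are shown to set their motif letters side by side. Of the 3 Adam19 starts in that table, the one closest to the annotated gene start was used. Capitals mark matches to AP-1 (TGANTCA), the E-box (CANNTG), the PU.1 core (GAGGAA), RUNX (TGTGGT) or TEAD (GGAATG), searched on both strands.
Adam19 promoter: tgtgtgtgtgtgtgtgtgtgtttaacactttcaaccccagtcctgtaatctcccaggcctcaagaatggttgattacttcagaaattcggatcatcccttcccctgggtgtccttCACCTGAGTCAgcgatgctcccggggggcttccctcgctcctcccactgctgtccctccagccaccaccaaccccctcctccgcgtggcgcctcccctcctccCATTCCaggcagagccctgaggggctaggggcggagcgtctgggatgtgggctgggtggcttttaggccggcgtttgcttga
Adam8 promoter: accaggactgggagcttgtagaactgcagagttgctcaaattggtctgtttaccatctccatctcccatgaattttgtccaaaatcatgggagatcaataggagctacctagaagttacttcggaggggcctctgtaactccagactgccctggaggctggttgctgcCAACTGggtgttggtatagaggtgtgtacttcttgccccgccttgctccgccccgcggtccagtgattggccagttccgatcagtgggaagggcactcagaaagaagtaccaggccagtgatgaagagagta

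The Adam19 window held an E-box starting at position -135 from the start, an AP-1 match at -131 that overlaps it, and a TEAD match on the reverse strand at -32. The Adam8 window held an E-box at -82 and no match to the other 4 motifs. Of 32851 promoter windows in that table, 7.81% held an AP-1 match, 72.3% an E-box, 28.3% the PU.1 core, 16.8% RUNX and 14.7% TEAD. A match is a description of the letters, and a missing one says only that they are not in this window.

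All 3 ADAM genes were higher in mdx than in Control muscle, by 2.51-fold to 4.91-fold, and so were Adamts7 and Adamts5, by 1.99-fold and 1.72-fold. The test was limma on log2(scaled reads + 1), fitted over all 16 libraries with Benjamini-Hochberg adjustment over the 831 genes at 0.05. Thus 5 of the 6 proteases passed, all higher in mdx, while 44.5% of the listed genes passed as higher. Higher ones made up 67.3% of all calls, and 49.1% with relative log expression factors computed from the listed genes, which give a median of all genes of 0.09 in place of 0.44 on the log2 scale and leave Adam8, Adam12 and Adam19 as the called members. Among the 498 genes listed with a higher mdx/miR-133b-/- than miR-133b-/- mean, to which all 6 belong, 74.3% passed as higher in mdx. The members' median log2 difference was 1.36, that of the ADAM genes 1.61 and that of the ADAMTS genes 0.99, against 0.44 over all listed genes. In whole muscle, a change in the number of cells of a type and a change in RNA per cell cannot be told apart.

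**Figure D1:**
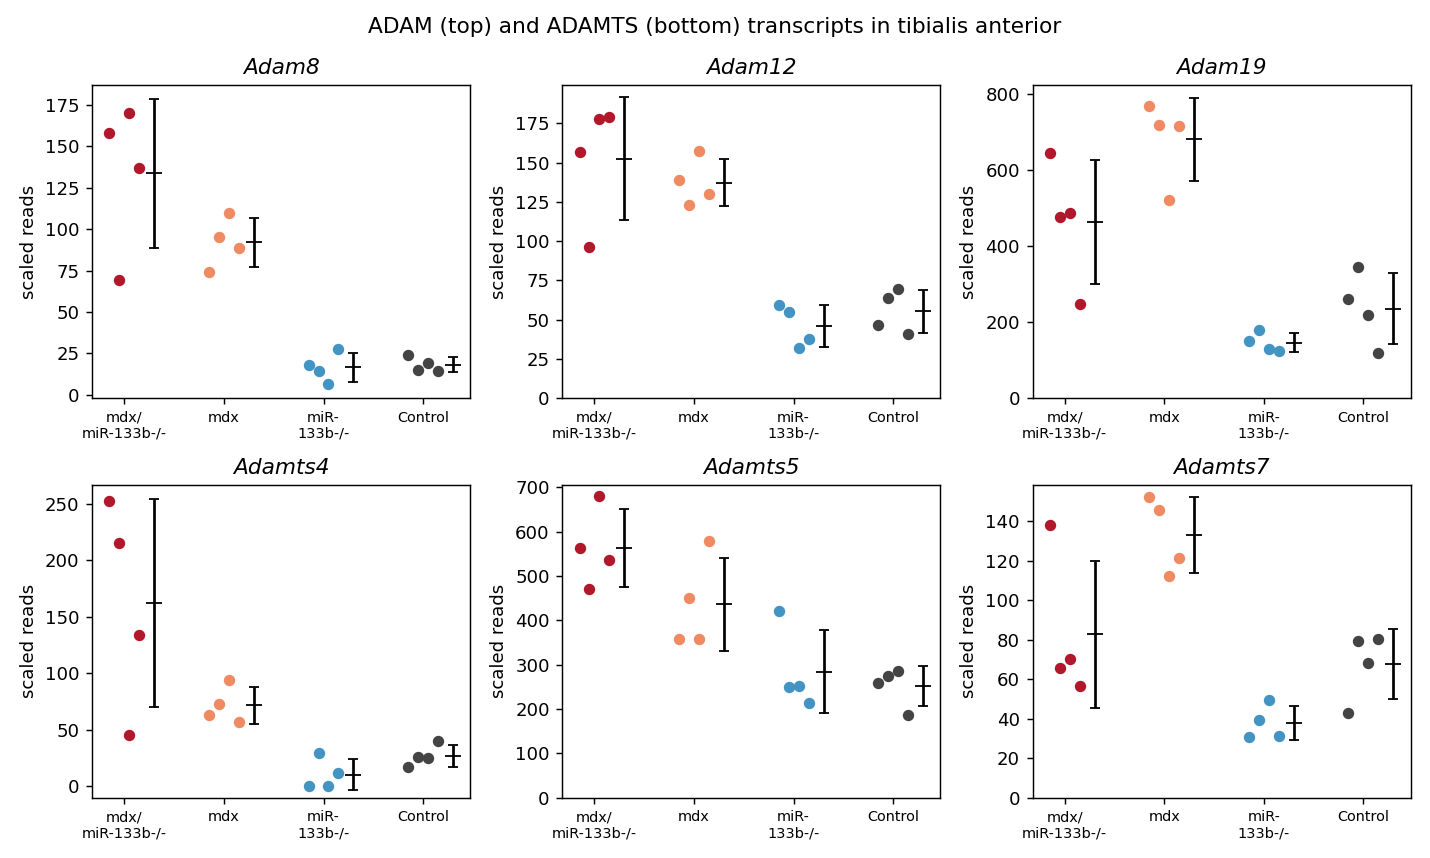
Scaled reads (y axis, a scale per gene) of the 6 proteases in each of the 16 libraries, with the genotypes mdx/miR-133b-/-, mdx, miR-133b-/- and Control from left to right; points are libraries and bars the mean with 1 SD (n = 4). For each gene the 4 mdx libraries lie above the 4 Control libraries, and the SD is larger in mdx/miR-133b-/- than in mdx for 5 of the 6 genes, Adamts5 being the exception.

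Adam8 (ENSMUSG00000025473, GRCm38 chr7:139978932-139992562, minus strand) encodes a sheddase of leukocytes that cuts adhesion molecules. It had 158, 69.6, 170 and 137 scaled reads in the mdx/miR-133b-/- libraries. The mdx libraries had 74.2, 95.4, 110 and 88.7. Both groups lay far above the dystrophin-sufficient muscles. The miR-133b-/- libraries held 18, 14.3, 6.62 and 27.5, and the Control libraries 24.3, 15.2, 19.0 and 14.2, which rest on 9 to 58 and 19 to 34 unscaled reads. No mdx or mdx/miR-133b-/- library overlapped with a library of the other 2 genotypes. Adam8 averaged 92.04 ± 14.8 in mdx and 18.2 ± 4.59 in Control (SD, n = 4 each), a log2 difference of 2.30 ± 0.40 (SE; limma adjusted p = 0.000147).

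Adam12 (ENSMUSG00000054555, chr7:133883199-134232146, minus strand), also called meltrin alpha, is known in mice from regenerating muscle and from the fusion of muscle precursors. Its scaled reads were 157, 96.1, 178 and 179 in mdx/miR-133b-/-, and 139, 123, 157 and 130 in mdx. They were 59, 55.0, 31.6 and 37.4 in miR-133b-/-, and 46.4, 63.8, 69.5 and 41.0 in Control. The ranges of mdx and mdx/miR-133b-/- again did not overlap with that of Control, with the shares given for Adam8. They lay above miR-133b-/- too, but mdx/miR-133b-/- against miR-133b-/- is the contrast on which the listed genes were selected. The mean was 137 ± 14.8 in mdx and 55.2 ± 13.6 in Control (SD, n = 4 each), with a log2 difference of 1.33 ± 0.28 (SE; limma adjusted p = 0.000627).

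Adam19 (ENSMUSG00000011256, chr11:46055992-46147343, plus strand), meltrin beta, is a sheddase of neuregulins. It had 643, 476, 488 and 247 scaled reads in mdx/miR-133b-/- and 768, 718, 520 and 716 in mdx. Values were 150, 180, 129 and 124 in miR-133b-/- and 262, 344, 219 and 118 in Control. The lowest mdx/miR-133b-/- library, at 247, lay within the Control range, whereas every mdx library was above it. Adam19 averaged 680 ± 110 in mdx and 235 ± 94.0 in Control (SD, n = 4 each), and the log2 difference was 1.61 ± 0.30 (SE; limma adjusted p = 0.000261). Antisense transcripts Gm16033 and Gm16034 share 587 and 480 exon bases with Adam19, and as strand use in counting is not given in the sources used here, their reads cannot be told apart.

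Adamts5 (ENSMUSG00000022894, chr16:85856173-85901828, minus strand) encodes an aggrecanase that also cuts versican and is known in mice from myoblast fusion. Its scaled reads were 563, 470, 681 and 537 in mdx/miR-133b-/-, and 357, 451, 357 and 578 in mdx. They were 422, 249, 251 and 214 in miR-133b-/-, and 259, 274, 285 and 186 in Control. It had the smallest difference of the 6 proteases between mdx and Control, and 1 miR-133b-/- library reached into the mdx range. The mean was 436 ± 105 in mdx and 251 ± 44.8 in Control (SD, n = 4 each), a log2 difference of 0.78 ± 0.23 (SE; limma adjusted p = 0.0063). With the relative log expression factors the difference was 0.43 (adjusted p = 0.105), and with each library's trend on GC content and length removed it was 0.46 (adjusted p = 0.0687).

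Adamts7 (ENSMUSG00000032363, chr9:90163069-90208071, plus strand) encodes a protease that cuts cartilage oligomeric matrix protein. It had 138, 65.6, 70.5 and 56.6 scaled reads in mdx/miR-133b-/- and 152, 146, 112 and 121 in mdx. Values were 31, 39.3, 49.3 and 31.3 in miR-133b-/- and 42.9, 79.6, 68.0 and 80.6 in Control. Its mdx libraries stood above all Control libraries, but 3 of the 4 mdx/miR-133b-/- libraries lay within the Control range. It averaged 132.8 ± 19.2 in mdx and 67.8 ± 17.6 in Control (SD, n = 4 each), with a log2 difference of 0.99 ± 0.30 (SE; limma adjusted p = 0.00807). The relative log expression factors left 0.64 (adjusted p = 0.0637), and 122 exon bases are shared with Tbc1d2b on the other strand.

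Adamts4 (ENSMUSG00000006403, chr1:171250421-171260637, plus strand), the other aggrecanase, was the most variable member. It had 253, 215, 45.6 and 134 scaled reads in mdx/miR-133b-/- and 63.2, 72.8, 94.4 and 57.3 in mdx. It was listed at 0, 29.3, 0 and 11.8 in miR-133b-/-, and at 17.2, 25.9, 25.6 and 40.3 in Control. The mdx libraries lay above the Control libraries without overlap, yet the gene did not pass, with a log2 difference of 1.40 ± 0.84 (SE; limma adjusted p = 0.140). The shared estimate of its spread includes the 2 libraries at 0. Fitted on the 8 mdx and Control libraries alone, the same difference passed (adjusted p = 0.00119, where 49.7% of the listed genes passed as higher), and with a pseudocount of 10 it was 1.15 (adjusted p = 0.0311). The ranges of mdx and Control did not overlap for any of the 6 proteases, all higher in mdx, as for 46.2% of the listed genes, and for 76.7% of the 498 genes described above.

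In mdx/miR-133b-/- muscle, 5 of the 6 proteases were again higher than in Control, but Adamts4 passed in the place of Adamts7. Of the listed genes, 54.3% passed as higher, which is 451 genes. By comparison, 498 genes are listed with a higher mdx/miR-133b-/- than miR-133b-/- mean, and all 6 proteases belong to them. The share that passed among these 498 was not computed. Higher ones made up 59.5% of all calls, and 49.3% with the relative log expression factors, where the median of all genes was 0.33, against 0.73 with the authors' factors. The log2 difference was 2.76 ± 0.40 for Adam8, the leukocyte sheddase (SE; limma adjusted p = 1.7e-05), and 1.44 ± 0.28 for Adam12 (adjusted p = 0.000187). Adamts5 differed by 1.17 ± 0.23 (SE; limma adjusted p = 0.000214), and by 0.34 with the GC and length trend removed (adjusted p = 0.147). Adamts4 differed by 2.33 ± 0.84 (SE; limma adjusted p = 0.0139). Adam19 differed by 0.99 ± 0.30 (SE; limma adjusted p = 0.00476), with overlapping ranges, and by 0.59 with the relative log expression factors (adjusted p = 0.0597). Adamts7 did not pass, at 0.23 ± 0.30 (SE; limma adjusted p = 0.452). The ranges did not overlap for 4 proteases, all higher, as for 44.9% of the listed genes, which is 373 genes. The share among the same 498 genes was not computed here either. This comparison shares its Control libraries with mdx against Control, and its mdx/miR-133b-/- libraries were used to select the listed genes.

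**Figure D2:**
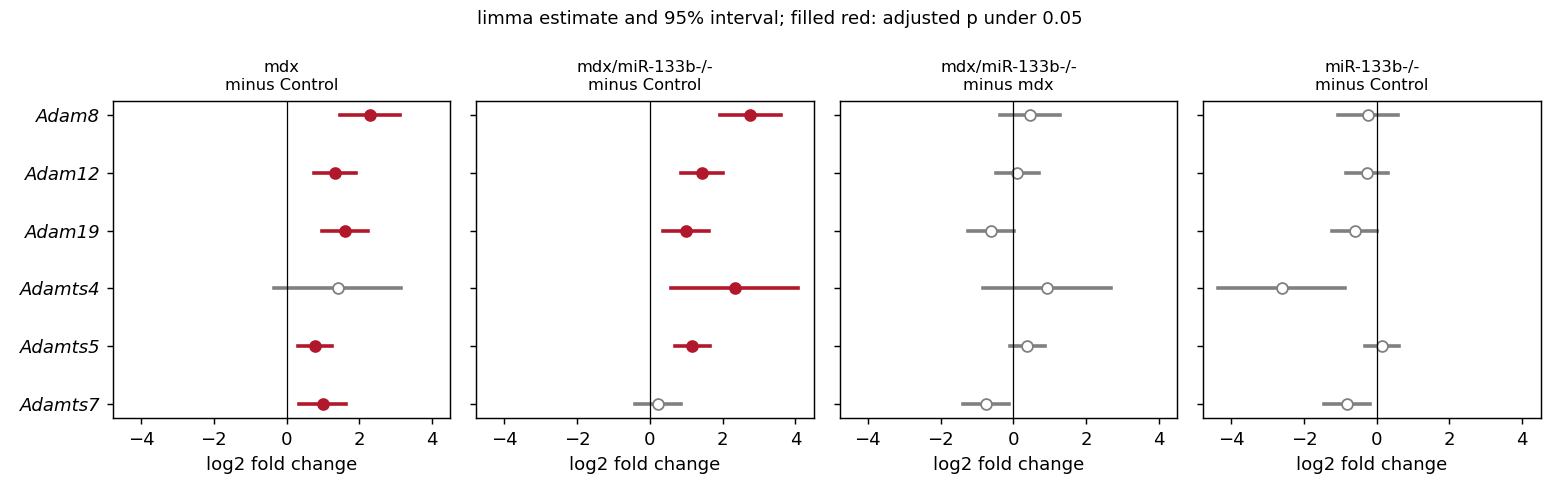
Log2 differences of the 6 proteases (rows) in 4 comparisons (panels), with limma estimates as points and 95% confidence intervals as bars; filled red points have an adjusted p under 0.05. Against Control, 5 of 6 estimates are filled for mdx and 5 of 6 for mdx/miR-133b-/-, and no estimate is filled for mdx/miR-133b-/- against mdx or for miR-133b-/- against Control.

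Loss of miR-133b in mdx muscle gave no call among the 6 proteases, where 19.5% of the listed genes passed in either direction. Of the 6, Adamts7 had an unadjusted p under 0.05 by limma, and Adamts7 and Adam19 did by limma-voom on the recovered reads, which also called 0 of them. Adamts7 averaged 82.7 ± 37.3 in mdx/miR-133b-/- and 132.8 ± 19.2 in mdx (SD, n = 4 each), a log2 difference of -0.76 ± 0.30 (SE; 95% interval -1.39 to -0.12; limma adjusted p = 0.0906). Without the first mdx/miR-133b-/- library, the one at 138, the difference was -1.03 (adjusted p = 0.0165). Adam19 averaged 464 ± 163 in mdx/miR-133b-/- and 680 ± 110 in mdx (SD, n = 4 each), with a log2 difference of -0.62 (95% interval -1.24 to 0.01; limma adjusted p = 0.160). The intervals of the other 4 also span 0: -0.36 to 1.30 for Adam8, -0.46 to 0.69 for Adam12, -0.82 to 2.68 for Adamts4 and -0.10 to 0.86 for Adamts5. The estimates for Adam12 and Adamts5 turned to -0.077 and -0.12 once the GC and length trend was removed.

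On the dystrophin-sufficient background, miR-133b-/- against Control likewise gave no call among the 6, nor among the 831 listed genes (0%). Unadjusted p-values under 0.05 were found for 2 proteases, Adamts4 and Adamts7, by limma and by limma-voom alike. Adamts7, the protease of cartilage oligomeric matrix protein, averaged 37.7 ± 8.62 in miR-133b-/- and 67.8 ± 17.6 in Control (SD, n = 4 each), a log2 difference of -0.81 ± 0.30 (SE; 95% interval -1.45 to -0.18; limma adjusted p = 0.359). Adamts4 differed by -2.61 ± 0.84 (SE; limma adjusted p = 0.335), a size that depends on the pseudocount because of the libraries at 0: it was -3.10 with 0.5 and -1.09 with 10. Adam19 differed by -0.60 (95% interval -1.23 to 0.02), Adam12 by -0.28 (-0.86 to 0.30), Adam8 by -0.24 (-1.07 to 0.58) and Adamts5 by 0.15 (-0.33 to 0.62). The signs for Adam8 and Adamts5 each turned when 1 miR-133b-/- library was left out.

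Whether miR-133b loss differed between the backgrounds was tested as an interaction, the mdx/miR-133b-/- minus mdx difference less the miR-133b-/- minus Control difference. None of the 6 proteases passed, and 0.963% of the listed genes did, which is 8 genes, or 110 without the second miR-133b-/- library. Adamts4 had the largest value, 3.54 ± 1.18 (SE; 95% interval 1.06 to 6.01; limma adjusted p = 0.148), and it was the protease with an unadjusted p under 0.05 by limma and by limma-voom. It was 1.96 with a pseudocount of 10, and 4.46 (adjusted p = 0.0228) without the second miR-133b-/- library, the highest of that group. The interaction was 0.71 for Adam8 (95% interval -0.46 to 1.89), 0.39 for Adam12 (-0.43 to 1.21), 0.24 for Adamts5 (-0.44 to 0.92), 0.06 for Adamts7 (-0.84 to 0.95) and -0.01 for Adam19 (-0.89 to 0.87). The interaction holds the contrast on which the listed genes were selected.

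For mdx/miR-133b-/- against miR-133b-/-, the contrast behind the table, the ratio of means was 15.8 for Adamts4, 8.05 for Adam8, 3.33 for Adam12, 3.18 for Adam19, 2.19 for Adamts7 and 1.98 for Adamts5. These are given without a test, as every listed gene had to differ here, and 100% of them passed limma in that contrast. The proteases nearest the 1.72-fold edge of the table were Adamts5 and Adamts7.

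Per length, as scaled reads per kilobase of annotated exon, the levels were led by Adam19 and Adamts5 in all 4 genotypes. In mdx/miR-133b-/-, Adam19 stood at 65.2 ± 23.0, Adamts5 at 52.1 ± 8.16, Adamts4 at 33.7 ± 19.1, Adam8 at 28.8 ± 9.66, Adam12 at 14.4 ± 3.68 and Adamts7 at 13.2 ± 5.94 (SD, n = 4). No neighbours in that order were apart, since the ranges of each pair overlapped. In mdx, Adam19 at 95.6 ± 15.4 was apart from Adamts5 at 40.4 ± 9.69, which in turn was apart from Adamts7 at 21.1 ± 3.06. Adam8, Adamts4 and Adam12 followed at 19.8 ± 3.19, 14.95 ± 3.39 and 13.0 ± 1.40, each overlapping with the next. In miR-133b-/-, Adamts5 (26.3 ± 8.67) and Adam19 (20.5 ± 3.57) overlapped and were apart from the other 4, which averaged between 2.14 and 6.002. Control showed the same break, with Adam19 at 33.1 ± 13.2 and Adamts5 at 23.3 ± 4.15 above the other 4 at 3.92 to 10.8.

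**Figure D3:**
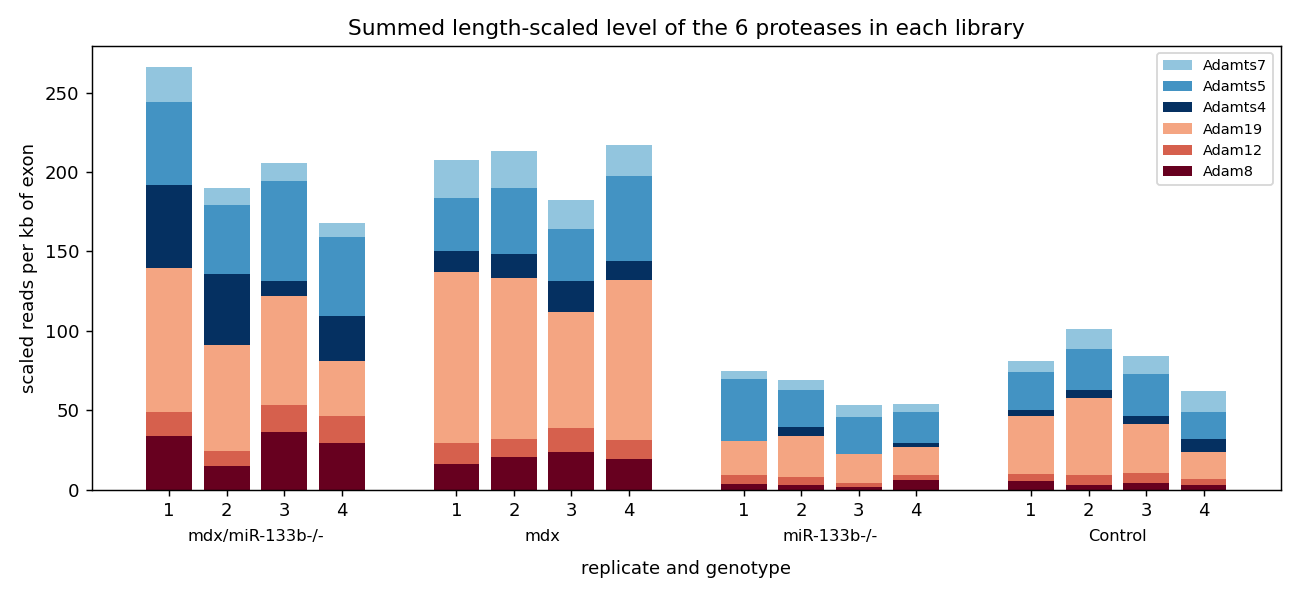
Stacked scaled reads per kilobase of exon (y axis) of the 6 proteases in each of the 16 libraries (x axis, replicates 1 to 4 within each genotype), with ADAM genes in red shades and ADAMTS genes in blue. Adam19 and Adamts5 fill most of each bar, and Adamts4 is widest in mdx/miR-133b-/- libraries 1, 2 and 4.

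The membrane ADAM genes together reached 108 ± 27.0 scaled reads per kilobase in mdx/miR-133b-/-, 128 ± 11.4 in mdx, 28.4 ± 4.76 in miR-133b-/- and 42.2 ± 14.2 in Control (SD, n = 4 each). The secreted ADAMTS genes reached 99.0 ± 19.6 in mdx/miR-133b-/-, 76.5 ± 7.14 in mdx, 34.5 ± 7.20 in miR-133b-/- and 39.7 ± 4.16 in Control. ADAM transcripts made up 52.0% ± 5.25 of the sum of all 6 in mdx/miR-133b-/-, 62.7% ± 2.34 in mdx, 45.3% ± 4.47 in miR-133b-/- and 50.4% ± 9.10 in Control. The mdx libraries, at 60.9% to 66.0%, lay above the range of every other genotype. Adam19 alone made up 46.5% ± 4.89 of the sum in mdx and 39.2% ± 9.57 in Control. Adamts4 took 16.1% ± 8.20 of it in mdx/miR-133b-/- and 7.42% ± 2.33 in mdx. These shares are descriptions without a test, since the members were chosen.

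On the log2 scale, where each gene weighs alike, the mean of the ADAM genes minus the mean of the ADAMTS genes was 0.16 ± 0.54 in mdx/miR-133b-/-, 0.36 ± 0.06 in mdx, 0.39 ± 0.64 in miR-133b-/- and -0.33 ± 0.51 in Control (SD, n = 4 each). With Adamts4 left out, a choice made after its zeros were seen, the balance was -0.05 ± 0.19 in mdx/miR-133b-/-, -0.22 ± 0.20 in mdx, -1.12 ± 0.49 in miR-133b-/- and -1.08 ± 0.37 in Control. On that measure the lowest library with the mdx mutation, at -0.39, was above the highest without it, at -0.65. Part of that split is mdx/miR-133b-/- against miR-133b-/-, the contrast on which the listed genes were selected. With Adamts4 kept there was no such split, as miR-133b-/- libraries reached 1.22 and mdx/miR-133b-/- libraries went down to -0.35. The part of the selection in the split was not tested.

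Deviations of the libraries from their own genotype's mean show which members vary together within a genotype, as Pearson correlations over 16 libraries given without a p. The 15 pairs of proteases ranged from -0.56 (Adamts4 with Adamts5, the pair of aggrecanases) to 0.52 (Adam12 with Adamts5). Pairs of the same class had a median of 0.08, and pairs across the classes 0.18. Adam8 with Adam12 reached 0.50. The points share a library, its depth and its scaling factor. Adamts4 correlations, also those with its closest genes below, include the 2 miR-133b-/- libraries where it was at 0. No rank or trimmed value was computed for these pairs or for the closest genes.

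Among 778 named genes searched, those most like Adam8 were Cd48 (r = 0.95), Cd300lb (0.93) and Itgax (0.92). The closest to Adam12 were Gpm6b (0.79), Cers6 (0.79) and Mymk (0.78), the myoblast fusion gene. Adam19 was followed by Sertad4 (0.81), Pdgfrl (0.78) and Cpxm1 (0.75). For the ADAMTS genes the closest were Fam129b (0.88), Tubb6 (0.82) and Dnm3os (0.81) for Adamts4, Zfp53 (0.72), Apbb1ip (0.69) and Fap (0.68) for Adamts5, and Rnf167 (0.74), Lama2 (0.72) and Shisal1 (0.71) for Adamts7. No gene stood among the 3 closest of more than 1 protease.

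Markers of other cell types moved with the mdx mutation beside the proteases. Of 20 macrophage markers, 13 are listed, and their summed scaled reads were 12552, 4190, 15361 and 11312 in mdx/miR-133b-/- and 7374, 8740, 11325 and 7502 in mdx. The sum was 2229, 1591, 1031 and 2844 in miR-133b-/- and 2430, 1912, 1537 and 1616 in Control. Against Control, 12 of the 13 rose in mdx, where 44.5% of all listed genes did. All 13 belong to the 498 genes listed with a higher mdx/miR-133b-/- than miR-133b-/- mean, of which 74.3% rose in mdx. Of the 13, 1 was at 0 in a miR-133b-/- library. The 3 with the smallest p-values were Ms4a7, with means of 165 in mdx and 10.6 in Control, the complement gene C1qb, with 237 in mdx and 48.0 in Control, and Adgre1, which encodes the F4/80 antigen, with 296 in mdx and 53.3 in Control. The mdx/miR-133b-/- library with the lowest macrophage sum, the second, was also the one with the lowest Adam8 value, 69.6.

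The 8 listed markers of satellite cells and regenerating fibres, of 14, summed to 8164 to 16096 scaled reads in mdx/miR-133b-/-, 9097 to 12664 in mdx, 979 to 3333 in miR-133b-/- and 1364 to 3857 in Control, and all 8 rose in mdx, against 44.5% of all listed genes and 74.3% of the 498 listed with a higher mdx/miR-133b-/- than miR-133b-/- mean. The 3 with the smallest p-values were the embryonic myosin gene Myh3, with means of 2533 in mdx and 45.7 in Control, the myosin light chain gene Myl4, with 539.9 in mdx and 38.2 in Control, and Ncam1, with 697 in mdx and 199 in Control. The 4 listed markers of fibro-adipogenic progenitors, the mesenchymal cells of muscle, of 11, summed to 23796 to 40949 in mdx/miR-133b-/-, 32628 to 34929 in mdx, 8553 to 19600 in miR-133b-/- and 11304 to 20498 in Control, and all 4 rose in mdx: Pdgfra by 1.30 on the log2 scale, Lum by 1.22, Col3a1 by 0.92 and Fap by 0.75, although the Fap difference was 0.39 with the relative log expression factors (adjusted p = 0.108). So did the 2 listed tenocyte markers, Thbs4 by 2.19 and Col12a1 by 1.36, of 8, with sums of 1085 to 2944 in mdx/miR-133b-/-, 1642 to 2046 in mdx, 434 to 660 in miR-133b-/- and 308 to 685 in Control. Flt1, the 1 listed endothelial marker of 8, fell against Control both in mdx/miR-133b-/- and in mdx, with means of 1215 in mdx/miR-133b-/-, 1089 in mdx and 1813 in Control.

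Ighm, the 1 listed lymphocyte marker of 10, averaged 71.5 scaled reads in mdx/miR-133b-/-, 220 in mdx, 616 in miR-133b-/- and 555 in Control. It fell in mdx/miR-133b-/- against Control (-2.77 ± 0.55 on the log2 scale, SE; limma adjusted p = 0.000228) and against mdx (-1.64 ± 0.55; limma adjusted p = 0.0419). The ranges of mdx/miR-133b-/- and mdx overlapped, and the call against mdx was lost under 10 of 26 alternatives. These were no variance trend, limma-voom, GC and length correction, and leaving out mdx library 1, 2 or 3, mdx/miR-133b-/- library 2 or 4, or Control library 2 or 4, with differences of -1.73 to -1.37 and adjusted p of up to 0.133. In mdx against Control it did not pass (-1.13; limma adjusted p = 0.0763).

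Of 10 fast-fibre markers 4 are listed, and their sum was 256312 to 320334 scaled reads in mdx/miR-133b-/-, 375355 to 552424 in mdx, 314869 to 730433 in miR-133b-/- and 592292 to 730110 in Control. In mdx/miR-133b-/- all 4 fell against Control, where 36.9% of the listed genes did. All 4 belong to the 333 genes listed with a lower mdx/miR-133b-/- than miR-133b-/- mean. Of all listed genes, 307 passed as lower in mdx/miR-133b-/- against Control, 100 against mdx, and 180 in mdx against Control. The shares among the 333 were not computed. Against mdx, 3 of the 4 fell in mdx/miR-133b-/-, where 12% of the listed genes did: Actn3 by 0.90 on the log2 scale, Pvalb by 0.78 and Ckm by 0.63, while Myh4 was at -0.56 (limma adjusted p = 0.138). With GC and length correction these 3 calls were lost, at -0.58 for Actn3, -0.46 for Pvalb and -0.41 for Ckm. They were also lost without mdx library 3, at -0.80 for Actn3, -0.65 for Pvalb and -0.55 for Ckm. Those of Pvalb and Ckm were lost without mdx library 1 or mdx/miR-133b-/- library 3 or 4, at -0.78 to -0.60, and that of Ckm without mdx library 4, at -0.66. In mdx against Control 2 of the 4 fell, where 21.7% of the listed genes did: Myh4 by 0.60 (limma adjusted p = 0.0472) and Ckm by 0.45 (limma adjusted p = 0.0409). The Myh4 call was lost under 14 of 26 alternatives, among them leaving out any Control or mdx/miR-133b-/- library, mdx library 2, 3 or 4, or miR-133b-/- library 3, at -0.65 to -0.47. The Ckm call was lost under 9, among them leaving out Control library 1, 2 or 3 or mdx library 1, 2 or 4, at -0.48 to -0.36.

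The part of these cell types in the protease levels was not tested. Of 10 neutrophil, 9 smooth muscle and pericyte, and 6 Schwann cell markers, 0 are listed.

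Within genotypes, Adam8 followed the mean of the macrophage markers with r = 0.90 (Spearman's rho 0.90, and r = 0.83 without the 2 libraries farthest from the median), while Adamts4 had r = 0.01 with it. Adam12 had r = 0.59 with the markers of regenerating fibres (rho 0.55, and 0.54 without the 2 farthest). It had a similar r = 0.56 with the fibro-adipogenic markers (rho 0.56, and 0.41 without the 2 farthest), so neither list stood out for it. Adam19 had r = 0.55 with the fibro-adipogenic markers (rho 0.45, and 0.79 without the 2 farthest), and Adamts7 had 0.62 with the 2 tenocyte markers (rho 0.55, and 0.46). The closest list for Adamts5 was the fibro-adipogenic one, with r = 0.41. These 30 correlations are descriptions over 16 libraries.

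**Figure D4:**
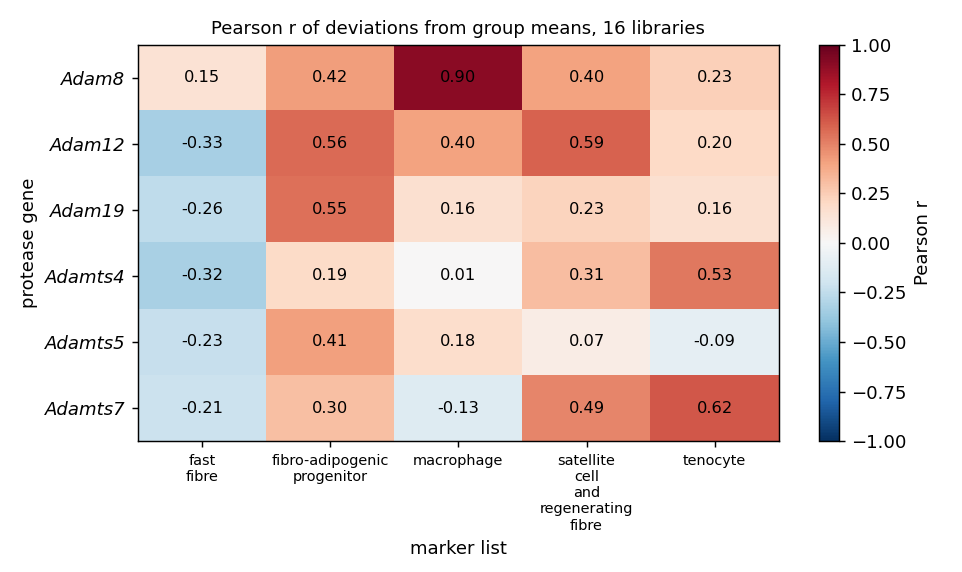
Pearson correlation (colour and number, -1 to 1) over 16 libraries between each protease (rows) and the mean of 5 marker lists (columns), after subtraction of each genotype's mean from log2(scaled reads + 1). The cell of Adam8 with macrophage markers, at 0.90, is the highest of the 30, and Adamts4 has 0.01 in the same column.

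Few other genes of these pathways are listed. Of 53 further ADAM, ADAMTS and ADAMTS-like genes the table holds 1, Adamtsl4, a fibrillin-binding relative without a protease domain. It averaged 194 ± 70.3 scaled reads in mdx/miR-133b-/-, 309 ± 30.6 in mdx, 398 ± 93.0 in miR-133b-/- and 250 ± 66.3 in Control (SD, n = 4 each). It differs from the 6 proteases in being listed with a lower mdx/miR-133b-/- than miR-133b-/- mean. Against mdx, mdx/miR-133b-/- libraries were lower without overlap, as for 16.2% of the listed genes, with a log2 difference of -0.74 ± 0.26 (SE; limma adjusted p = 0.0556). The interaction was -1.42 ± 0.37 (SE; limma adjusted p = 0.0956). Neither these nor mdx against Control (0.34, adjusted p = 0.251) passed. The difference from mdx passed with limma-voom (adjusted p = 0.0497), with a minimum mean of 100 (0.0461), and without Control library 1, miR-133b-/- library 4 or mdx/miR-133b-/- library 3 (0.0465 to 0.0490). The interaction passed with the relative log expression factors (-1.62, adjusted p = 0.0374) and without miR-133b-/- library 2 (-1.40, 0.0359) or 4 (-1.60, 0.0422). With those factors mdx/miR-133b-/- was also lower than Control, at -0.80 (adjusted p = 0.0137).

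Timp1 is the 1 listed gene of 19 that inhibit, activate or clear ADAM and ADAMTS proteases in general. It inhibits matrix metalloproteinases and some ADAM proteases. Whether it inhibits any of the proteases studied here was not tested. It averaged 121 ± 44.3 in mdx and 14.0 ± 5.48 in Control (SD, n = 4 each), a log2 difference of 3.01 ± 0.72 (SE; limma adjusted p = 0.00163). Of 15 adhesion and adaptor partners the table lists Sh3pxd2b, a podosome adaptor, which averaged 437 ± 39.1 in mdx and 221 ± 75.2 in Control (limma adjusted p = 0.00613). Neither passed between mdx/miR-133b-/- and mdx.

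Of 35 membrane proteins known as substrates of ADAM sheddases, 5 are listed and all 5 rose in mdx, where 44.5% of the listed genes did: Csf1r, the receptor of macrophage colony-stimulating factor, by 2.19 on the log2 scale, Cxcl16 by 1.85, Ncam1 by 1.77, the tumour necrosis factor receptor Tnfrsf1b by 1.23, and the hyaluronan receptor Cd44 by 0.66. The list median was 1.77, against 0.44 over all listed genes. The list covers ADAM sheddases in general, and cutting of these 5 by Adam8, Adam12 or Adam19 was not tested. All 5 belong to the 498 genes listed with a higher mdx/miR-133b-/- than miR-133b-/- mean, of which 74.3% rose in mdx. Csf1r is also on the macrophage list and Ncam1 on that of regenerating fibres. The Cd44 difference from Control was 0.31 with the relative log expression factors (adjusted p = 0.242) and 0.57 without the first Control library (adjusted p = 0.0578).

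Cd44 was also the 1 listed substrate that rose in mdx/miR-133b-/- against mdx, where 7.46% of the listed genes did, which is 62 genes. It belongs to the 498 genes listed with a higher mdx/miR-133b-/- than miR-133b-/- mean, so these mdx/miR-133b-/- libraries were used to select it. The share that passed among the 498 was not computed. It had 984, 865, 1297 and 1762 scaled reads in mdx/miR-133b-/- and 638, 794, 722 and 762 in mdx. The ranges did not overlap, for which no share of the listed genes is given here. The log2 difference was 0.70 ± 0.23 (SE, limma adjusted p = 0.0410). The call was lost with no variance trend, with the relative log expression factors, with the GC and length trend removed, or when any mdx library or mdx/miR-133b-/- library 3 or 4 was left out, with differences of 0.39 to 0.74 and adjusted p of 0.0536 to 0.238.

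Of 26 matrix proteins known as substrates of ADAMTS proteases, 7 are listed (Vcan, Thbs2, Thbs4, Bgn, Lum, Fn1 and Postn). This list covers ADAMTS proteases in general, and cutting by Adamts4, Adamts5 or Adamts7 was not tested. All 7 rose in mdx, where 44.5% of the listed genes did, with a median log2 difference of 1.29 against 0.44 over all listed genes. They too belong to the 498 genes listed with a higher mdx/miR-133b-/- than miR-133b-/- mean, of which 74.3% rose in mdx. Of the 3 with the smallest p-values, Postn averaged 4978 ± 429 in mdx and 872 ± 312 in Control, Thbs4 1410 ± 204 in mdx and 322 ± 121 in Control, and Thbs2 311 ± 25.7 in mdx and 118 ± 26.4 in Control (SD, n = 4 each; limma adjusted p = 6.8e-05, 5.0e-05 and 0.000234). Vcan, the versican gene, averaged 570 ± 112 in mdx and 281 ± 83.1 in Control (limma adjusted p = 0.00371). None of the 7 passed between mdx/miR-133b-/- and mdx, where 19.5% of the listed genes did, and their median was -0.35 against -0.036 over all listed genes.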

How the data were processed

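The deposited values are signal: for 831 genes, read counts that the authors multiplied by 1 factor per library, per the values, since division by a factor of 0.459 to 1 gave whole reads within 0.001 for 100% of them. The submitters' processing notes name HISAT2, the GRCm38 build and HTSeq; versions, settings and strand use are not given in the sources used. RNA came from an Aurum kit with DNase treatment, per the labels' protocols. Libraries were grouped by the code in the title; for 14 of 16 the description names another sample's code. All 831 identifiers matched GENCODE M21 (GRCm38), the source of coordinates and lengths.

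The values were taken as scaled, so limma 3.58.1 (R 4.3.3) was fitted to log2(value + 1), with 1 mean per genotype over 16 libraries. It used a variance trend, no filter, and Benjamini-Hochberg adjustment over 831 genes. The added 1 shrinks the log2 change of low genes, whereas libraries at 0 can enlarge it against the ratio of means. For Adamts4 in miR-133b-/- minus Control, the fitted fold was 0.164 and the ratio of means 0.377. A count model foreseen for unscaled counts was not used. Alternatives were other scalings, pseudocounts, filters, tools, GC and length correction, a replicate block and leaving out each library. Replicate numbers do not pair the libraries: deviations correlated above 0.1 in 2 of 24 same-number pairs. No pair of libraries looked like 1 library deposited again (chi-square per degree of freedom at least 38.7). Sequences are from RefSeq and the GRCm38 genome, read with Python 3.11.15.

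The members, gene lists and markers were chosen with earlier results of these data known, so no list is independent support. Named genes are the 6 proteases, all listed genes of lists with up to 6 (for longer lists the 3 smallest p-values; Vcan, Bgn, Gm28653, and Cd44, Thbs4, Flt1, Ighm and the fast-fibre genes beyond mdx against Control, were added after their values were seen), and for each protease the 3 genes with the highest within-genotype correlation.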

Additional observations from a re-analysis of the deposited data

Results flagged for a closer look

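In mdx/miR-133b-/-, Adamts7 had 1 library far from the other 3: library 1, at 138.01 scaled reads, with the others at 56.6, 65.6 and 70.5. Its gap to the nearest was 0.83 of the range of the group, just past the Dixon critical value for 4 libraries. Chance alone flags about 1 in 20 groups, and 24 sets of 4 libraries were examined. The same library was the highest of the 4 in Thbs4 (2525 scaled reads, with the others at 718 to 755), in Bgn (4812, with 1647 to 2381) and in the sum of the satellite cell and regenerating fibre markers (16096, with 8164 to 9885). The part of these in the Adamts7 value was not tested. Without that library, Adamts7 passed as lower in mdx/miR-133b-/- than in mdx, at -1.03 on the log2 scale (limma adjusted p = 0.0165), and its difference from Control was -0.04.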

How the results depend on the processing

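In mdx against Control, the number of proteases called, 5, was 6 with a pseudocount of 10 or on the 8 libraries of both groups, 4 with GC and length correction, 3 with relative log expression factors, and 2 with a minimum mean of 100, where 2 were left to test. In mdx/miR-133b-/- against Control it was 4 with GC and length correction or relative log expression factors, and again 2 of 2 with that minimum. Leaving out each library gave 5 throughout for these comparisons and 0 throughout for miR-133b-/- against Control, but 0 to 1 for mdx/miR-133b-/- against mdx and 0 to 1 for the interaction. With Adamts4 left out, an alternative chosen after seeing the data, the balance of ADAM over ADAMTS genes was 0.18 for mdx/miR-133b-/- minus mdx, where it had been -0.20, and -0.042 for miR-133b-/- minus Control, where it had been 0.72 (cause not tested).

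Differences that turned in sign, none of them called, were as follows, and the cause was not tested. Adamts7 in mdx/miR-133b-/- minus Control was -0.16 with relative log expression factors and -0.040 to 0.38 when libraries were left out. In mdx/miR-133b-/- minus mdx, GC and length correction gave -0.077 for Adam12 and -0.12 for Adamts5. In miR-133b-/- minus Control, leaving out libraries gave -0.53 to 0.11 for Adam8 and -0.061 to 0.26 for Adamts5. The interaction of Adam19 was 0.012 with upper quartile factors, 0.020 with limma-voom and -0.23 to 0.28 when libraries were left out; that of Adamts7 was -0.14 with relative log expression factors and -0.22 to 0.26; that of Adamts5 was -0.28 with GC and length correction. Adamtsl4 was -0.013 in mdx minus Control with relative log expression factors and 0.038 in mdx/miR-133b-/- minus Control with GC and length correction, which also gave 0.053 for Pvalb in mdx minus Control.

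Replicate numbers do not pair the libraries, and with the replicate block the proteases called numbered 5 in mdx and 5 in mdx/miR-133b-/- against Control, and 0 in the other comparisons and the interaction; Cd44 in mdx/miR-133b-/- against mdx was at 0.70 (adjusted p = 0.0528). A library correlated higher on average with its own number in 3 of 16 cases. Over all genes, the calls in mdx/miR-133b-/- against mdx were 162, but 55 with GC and length correction and 49 to 197 when libraries were left out; those of the interaction were 8, but 5 with GC and length correction, 4 with the minimum mean, 14 with relative log expression factors and 7 to 110 when libraries were left out. The planned edgeR test on recovered reads was not run. Low counts limit Adam8 and Adamts4 outside the mdx genotypes.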

Other observations

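Adam8 and Adamts4 were ordered differently across the mdx/miR-133b-/- libraries. Library 3 had the highest Adam8 value, 170 scaled reads, and the lowest Adamts4 value, 45.6. Library 2 had the lowest Adam8 value, 69.6, with 215 for Adamts4. The macrophage sum was 15361 in library 3 and 4190 in library 2. In the 4 mdx libraries both genes were highest in library 3, with 110 for Adam8 and 94.4 for Adamts4. No test was made of these orders.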
